A study of Homo sapiens with 24 samples.

Results

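The levels and the loss after transcription was stopped were examined for 8 named long noncoding RNAs in HepG2, an established human liver cancer line. The RNAs were MALAT1, NEAT1, KCNQ1OT1, TUG1, PVT1, HULC, NORAD and OIP5-AS1. They were taken by name from the 58676 gene rows of each library, and all 8 were found and passed the filter on low counts (at least 1 CPM, that is, 1 count per 1000000 reads assigned to genes, in at least 2 libraries), as did 13136 genes in all. Cells were transfected either with the AllStars negative control siRNA (siControl) or with an siRNA against IGF2BP1, IGF2BP2 or IGF2BP3 (siIGF2BP1, siIGF2BP2, siIGF2BP3). These genes encode related RNA-binding proteins that influence the stability of their target transcripts. All cells then received actinomycin D, which blocks transcription, at 5 µg/ml for 0, 3 or 6 h before collection. The 4 siRNA conditions and 3 times gave 12 groups of 2 libraries, 24 in all. Knockdown was transient, the RNA was poly(A)-selected from total RNA of whole cells, and every group shares the HepG2 background and the transfection.

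Long noncoding RNAs are transcribed like messenger RNAs but are not known to act through a protein product. Some stay in the nucleus, where MALAT1 marks nuclear speckles, NEAT1 forms the scaffold of paraspeckles, and KCNQ1OT1 silences genes of its imprinted domain. TUG1 and PVT1 are also found largely in the nucleus, TUG1 in both compartments. HULC, which is abundant in liver cancers, NORAD, a decoy for the RNA-binding protein PUM2, and OIP5-AS1, which binds the RNA-binding protein HuR, are known mainly from the cytoplasm. These locations are background and were not measured here, since whole-cell RNA was sequenced. In bulk RNA, fewer cells with a transcript and less of it per cell cannot be told apart.

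Each library held between 31843248 and 74252042 reads assigned to genes and between 50889 and 119088 reads from the ERCC synthetic RNAs, which had been added in proportion to total RNA. The targeted genes were reduced in their own knockdowns. IGF2BP1 was at 102 to 148 CPM in the 6 siIGF2BP1 libraries against 651 to 710 CPM in the 6 siControl libraries. IGF2BP2 was at 43.6 to 50.8 CPM in siIGF2BP2 against 188 to 208 CPM, and IGF2BP3 at 30.9 to 40.3 CPM in siIGF2BP3 against 111 to 127 CPM. The mean log2 changes over the 3 times were -2.50 ± 0.02 (SE), -2.12 and -1.79 (edgeR quasi-likelihood test, adjusted p = 2.44e-46, 2.38e-40 and 1.07e-35). The 8 liver markers examined were each at 1 CPM or more in every library, and 5 markers of leukocytes, endothelium and fibroblasts together reached at most 2.25 CPM.

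Levels over time are given as ERCC-scaled CPM, that is, reads relative to the ERCC reads of the same library, set to the size of a CPM. On this scale a transcript that is lost after actinomycin D falls, whereas on a scale fixed by total reads only its loss relative to the other transcripts is seen. In siControl at 0 h the level per kilobase of exon was highest for MALAT1 (109 ERCC-scaled CPM per kb) and NORAD (77.2). It was lower for TUG1 (14.7), NEAT1 (6.63), KCNQ1OT1 (3.88) and OIP5-AS1 (3.26), and lowest for PVT1 (0.268) and HULC (0.0234). Exon lengths were those of all annotated transcripts together, so a gene with long, little-used exons appears lower than its main transcript would.

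**Figure D1:**
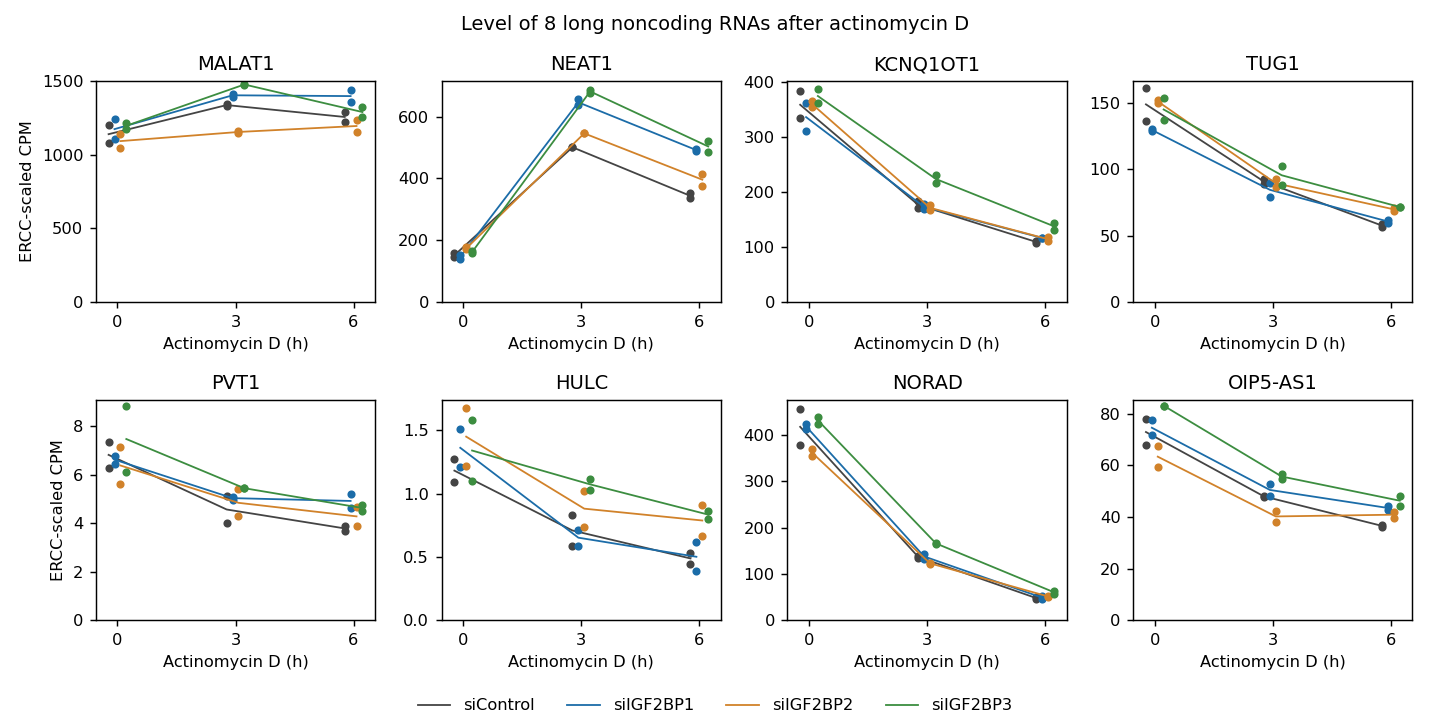
Level of each of the 8 long noncoding RNAs, in ERCC-scaled CPM, against hours of actinomycin D, with a point for each library and lines through the means of the 2 libraries per siRNA condition. MALAT1 stayed between 1049 and 1481, NEAT1 rose to a peak at 3 h in all 4 conditions, and the other 6 RNAs were lower at 6 h than at 0 h in every condition.

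MALAT1 (ENSG00000251562.8) lies on the plus strand of hg38 at chr11:65497640-65508073 and NEAT1 (ENSG00000245532.8) just before it at chr11:65422774-65445540. Both are annotated as lncRNA genes with unspliced main transcripts. Each is known to end in a structure rather than in a poly(A) tail in its full-length form, in which 2 U-rich stretches fold onto an A-rich stretch as a triple helix. The 88 bases that hold these stretches are shown because this end is a known feature of both RNAs. Whether it bears on their levels here was not tested. Capitals mark the U-rich stretch on each side of the hairpin and the A-rich stretch at the end (hg38, chr11:65506029-65506116 for MALAT1 and chr11:65445453-65445540 for NEAT1, plus strand, T for U).
MALAT1: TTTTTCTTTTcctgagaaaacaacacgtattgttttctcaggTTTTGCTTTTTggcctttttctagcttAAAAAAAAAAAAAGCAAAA
NEAT1: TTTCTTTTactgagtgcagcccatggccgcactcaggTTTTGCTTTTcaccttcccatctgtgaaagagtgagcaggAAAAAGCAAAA
A search for the 3 stretches in this order and spacing, written after these sequences had been read, found them in 2 of 58207 annotated main transcripts, MALAT1 and NEAT1 themselves. The NEAT1 stretch is at the very end of the annotated gene, and the MALAT1 stretch is 1957 bases before it. NEAT1 also has a short, polyadenylated form that stops far upstream of this end, and the deposited counts do not separate the forms. The RNA was poly(A)-selected, and how much of the forms without a poly(A) tail was recovered was not measured.

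NEAT1 rose sharply after actinomycin D. In siControl the 2 libraries held 157 and 145 ERCC-scaled CPM at 0 h, 500 and 501 at 3 h, and 351 and 335 at 6 h. The 3 h libraries were thus at 331% and 332% of the 0 h mean, and the 6 h libraries had come down to 233% and 222%. The 3 times did not overlap. The log2 change from 0 to 3 h was 1.73 ± 0.08 (SE; edgeR, adjusted p = 4.92e-92), the largest of the 13136 genes tested, where the median gene changed by -0.44 and 0.906% of genes rose. From 3 to 6 h NEAT1 then fell by 0.54 on the log2 scale (edgeR, adjusted p = 1.68e-10), as did 64.9% of genes. Computed as first-order loss, this gives a half-lifetime of 5.50 h over those hours. Since NEAT1 had just risen under actinomycin D, that value describes a net change and not decay alone. The changes from 0 to 3 h and from 3 to 6 h were examined after the levels had been seen, because a straight line over the 3 times describes a rise and fall poorly. With such a line the change over 6 h was 1.18 ± 0.72 in siControl and 1.19 in siIGF2BP2, and neither passed the test (edgeR, adjusted p = 0.138 and 0.139). It was 1.75 in siIGF2BP1 and 1.63 in siIGF2BP3 (edgeR, adjusted p = 0.0401 and 0.0547). In a fit of only the groups compared, the change passed in siControl, siIGF2BP2 and siIGF2BP3 as well (edgeR, adjusted p = 0.0252, 0.0379 and 0.0263), and DESeq2 called it in siIGF2BP3 (adjusted p = 0.0236). The call in siIGF2BP1 was lost without the first or the second 0 h library (1.21 and 1.14, adjusted p = 0.253 and 0.266), and a call was gained in siIGF2BP3 without either 3 h library (adjusted p = 0.0359 and 0.0378) or either 6 h library (adjusted p = 0.0401 and 0.0344).

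The same course was seen in each knockdown, with a higher peak in siIGF2BP1 and siIGF2BP3. In siIGF2BP1 NEAT1 went from 151 and 139 ERCC-scaled CPM at 0 h to 656 and 636 at 3 h and 487 and 495 at 6 h. In siIGF2BP3 it went from 157 and 165 to 688 and 675 and then to 520 and 487. In siIGF2BP2 it went from 170 and 176 to 545 and 546 and then to 376 and 415. At 3 h and at 6 h every siIGF2BP1 and siIGF2BP3 library was above every siControl and siIGF2BP2 library, whereas at 0 h siIGF2BP1 overlapped with siControl and the lower siIGF2BP3 library lay within 1 ERCC-scaled CPM of the higher siControl library. The peaks were at 451% and 438% of the 0 h mean in siIGF2BP1 and 426% and 419% in siIGF2BP3, against 315% in both siIGF2BP2 libraries. From 0 to 3 h the log2 level in the siIGF2BP1, siIGF2BP2 and siIGF2BP3 cells changed by 2.15, 1.66 and 2.08, with an SE of 0.08 or 0.09 (edgeR, adjusted p = 2.54e-137, 6.58e-85 and 9.18e-129). In these conditions 1.08%, 0.312% and 1.79% of all genes rose from 0 to 3 h.

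**Figure D2:**
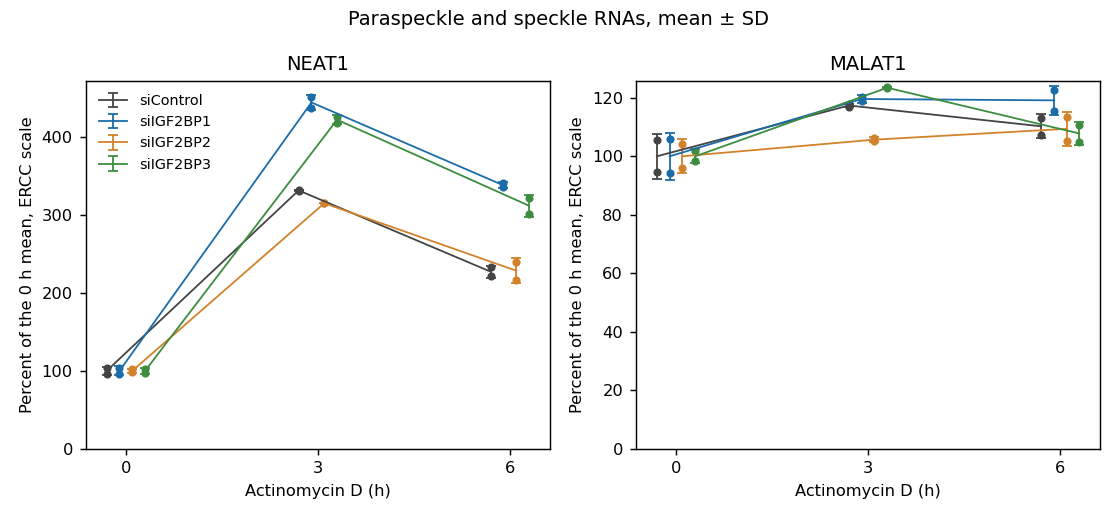
NEAT1 and MALAT1 as percent of their own 0 h mean on the ERCC scale against hours of actinomycin D, with a point for each library, lines through the means and bars for the SD of 2 libraries. NEAT1 peaked at 331% to 332% in siControl and at 438% to 451% in siIGF2BP1, while MALAT1 stayed between 94.3% and 124% in every library.

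Whether the rise of NEAT1 differed between conditions depended on the interval and the scale. For the change from 0 to 6 h, siIGF2BP1 exceeded siControl by 0.57 ± 0.12 log2 (SE; edgeR, adjusted p = 0.00127), and siIGF2BP3 exceeded it by 0.46 ± 0.12 (edgeR, adjusted p = 0.0185). NEAT1 itself rose over this interval in all 4 conditions, by 1.19 log2 in siControl and by 1.76, 1.19 and 1.64 in the 3 knockdowns, where 0.563%, 3.25%, 2.88% and 3.49% of genes rose. The median gene differed by 0.19 and 0.22 in these contrasts, and 0.655% and 1.48% of genes were called. siIGF2BP2 differed from siControl by 0.01, with a 95% interval from -0.22 to 0.24 (edgeR, adjusted p = 0.972; 0.548% of genes called). siIGF2BP1 also exceeded siIGF2BP2 by 0.56 ± 0.12 (edgeR, adjusted p = 0.00205; 0.099% of genes called), whereas siIGF2BP2 and siIGF2BP3 differed by -0.45 without passing the test (edgeR, adjusted p = 0.215). All comparisons with siControl use the same siControl libraries. These changes over an interval were not refitted with DESeq2, with a replicate block or with each library left out.

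For the change from 0 to 3 h on the ERCC scale, NEAT1 rose 0.42 ± 0.12 log2 more in siIGF2BP1 than in siControl (edgeR, adjusted p = 0.25; 0.0609% of genes called) and 0.35 ± 0.12 more in siIGF2BP3 (edgeR, adjusted p = 0.604; 0.0761% of genes called), and neither passed the test. In siIGF2BP2 the difference was -0.07, with a 95% interval from -0.30 to 0.15 (0.0457% of genes called). The difference of 0.49 ± 0.12 between siIGF2BP1 and siIGF2BP2 did (edgeR, adjusted p = 0.0331; 0.0685% of genes called). With TMM scaling, which removes shifts common to all transcripts and leaves less spread between the libraries, the differences were 0.35 ± 0.05 for siIGF2BP1 and 0.29 ± 0.05 for siIGF2BP3 against siControl (edgeR, adjusted p = 0.000254 and 0.0111; 0.0837% and 0.0609% of genes called). On that scale siIGF2BP2 was at -0.05 against siControl (edgeR, adjusted p = 0.892; 0.0761% of genes called), siIGF2BP1 exceeded siIGF2BP2 by 0.40 (edgeR, adjusted p = 8.43e-06; 0.244% of genes called), and siIGF2BP2 was below siIGF2BP3 by 0.33 (log2 difference -0.33; edgeR, adjusted p = 0.00146; 0.0685% of genes called). siIGF2BP1 and siIGF2BP3 differed by 0.06, with a 95% interval from -0.04 to 0.16 (edgeR, adjusted p = 0.876). NEAT1 fell from 3 to 6 h in each knockdown too, with log2 changes of -0.39 for siIGF2BP1, -0.46 for siIGF2BP2 and -0.44 for siIGF2BP3 (edgeR, adjusted p = 6.89e-06, 1.17e-07 and 6.2e-07), where 45.9%, 36.9% and 41.6% of genes fell. Computed in the same way, and again as net changes, these give half-lifetimes of 7.60, 6.47 and 6.86 h over those hours. No difference between 2 conditions passed the test in this interval. In the fit with a straight line over all 3 times, the NEAT1 differences from siControl were 0.57 ± 1.03, 0.01 ± 1.01 and 0.45 ± 1.03, and none passed the test.

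MALAT1 rose by a small amount from 0 to 3 h in 3 of the 4 conditions, while over 6 h its change passed the test in siIGF2BP1 alone. The siControl libraries held 1203 and 1079 ERCC-scaled CPM at 0 h, 1344 and 1334 at 3 h, and 1224 and 1292 at 6 h. The 3 times did not overlap, with the 0 h libraries lowest and the 3 h libraries highest. From 0 to 3 h MALAT1 rose by 0.23 ± 0.08 log2 in siControl, 0.26 ± 0.08 in siIGF2BP1 and 0.30 ± 0.08 in siIGF2BP3 (edgeR, adjusted p = 0.00711, 0.00276 and 0.000357), where 0.906%, 1.08% and 1.79% of genes rose. In siIGF2BP2 the change was 0.08 (edgeR, adjusted p = 0.38; 0.312% of genes rose), and no knockdown differed from siControl past the test over this interval. From 3 to 6 h it fell in siIGF2BP3, by 0.20 log2 (edgeR, adjusted p = 0.0359; 41.6% of genes fell), and gave no call in the other conditions. As for NEAT1, these intervals were chosen after the levels had been seen. The change over 6 h, as a straight line, was 0.14 ± 0.10 log2 (edgeR, adjusted p = 0.218), and no half-lifetime could be given since the 6 h level was not below that at 0 h. In siIGF2BP1 MALAT1 held 1243 and 1108 at 0 h and 1442 and 1359 at 6 h, a change of 0.25 ± 0.10 (edgeR, adjusted p = 0.0349) where 2.69% of genes rose. That call was lost without the first siIGF2BP1 library at 0 h (adjusted p = 0.0591), without the second (0.14 log2, adjusted p = 0.295) or without the first at 6 h (adjusted p = 0.0855). The changes were 0.13 in siIGF2BP2 and 0.11 in siIGF2BP3, and neither passed the test (edgeR, adjusted p = 0.261 and 0.371; 2.44% and 2.91% of genes rose). With TMM scaling, on which a stable transcript gains as others are lost, MALAT1 rose in all 4 conditions, by 0.75 log2 in siIGF2BP3 and by more in the others. Between 91.1% and 98.1% of all genes lost more over 6 h than MALAT1, depending on the condition.

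**Figure D3:**
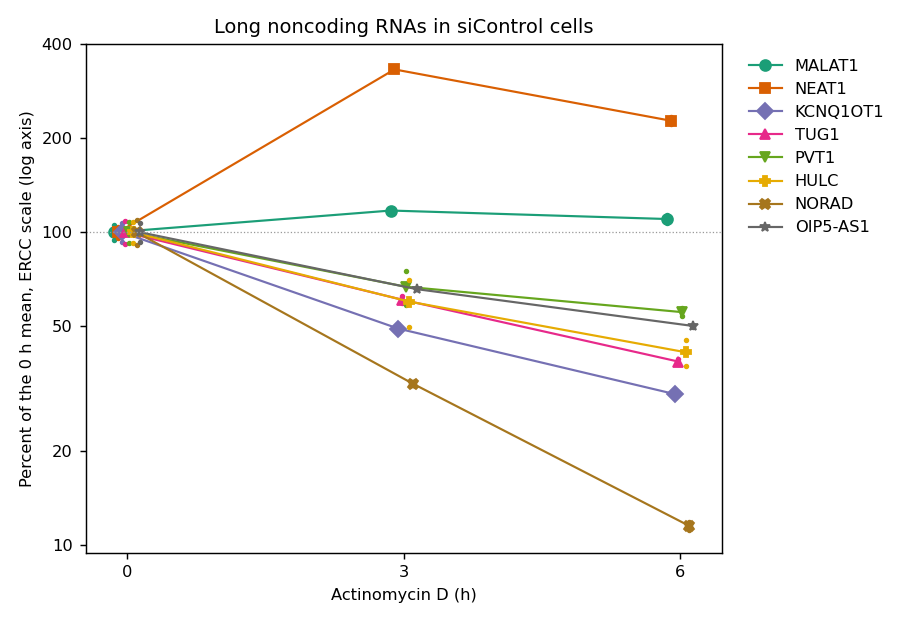
Percent of the 0 h mean on the ERCC scale (log axis) against hours of actinomycin D for the 8 long noncoding RNAs in siControl cells, with small points for the 2 libraries and larger symbols for their mean. At 6 h NEAT1 stood at 227% and MALAT1 at 110%, and the other 6 lay between 55.6% (PVT1) and 11.5% (NORAD).

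KCNQ1OT1 (ENSG00000269821.1) is transcribed from the minus strand at chr11:2597308-2700003, within and antisense to the potassium channel gene KCNQ1. KCNQ1 itself had at most 5 reads in any library. In siControl KCNQ1OT1 held 383 and 335 ERCC-scaled CPM at 0 h, 171 and 183 at 3 h, and 112 and 107 at 6 h. The 3 times did not overlap in any of the 4 conditions. The change over 6 h was -1.72 ± 0.11 log2 (edgeR, adjusted p = 6.9e-12), and the half-lifetime was 3.19 h, with 2.97 to 3.47 h when each library was left out in turn. The siIGF2BP3 libraries held 231 and 217 at 3 h and 144 and 131 at 6 h, above every siControl library of the same time. The half-lifetime in siIGF2BP3 was 4.09 h (3.89 to 4.32 h), and the slope differed from siControl by 0.27 log2 over 6 h, with a 95% interval from -0.04 to 0.59, without passing the test (edgeR, adjusted p = 0.359). The half-lifetimes were 3.48 h in siIGF2BP1 and 3.15 h in siIGF2BP2.

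TUG1 (ENSG00000253352.9), an RNA known for its part in chromatin regulation and development of the retina, lies on the plus strand at chr22:30969245-30979395. Its row is typed as protein-coding in the annotation used here. The siControl libraries held 162 and 137 ERCC-scaled CPM at 0 h, 93.0 and 88.7 at 3 h, and 58.5 and 56.7 at 6 h. The change over 6 h was -1.37 ± 0.10 log2 in siControl (edgeR, adjusted p = 2.79e-11) and -1.10, -1.12 and -1.02 in the siIGF2BP1, siIGF2BP2 and siIGF2BP3 cells. At 6 h every knockdown library, from 59.4 to 71.9 ERCC-scaled CPM, was above both siControl libraries. In CPM without ERCC scaling they overlapped, at 72.6 and 75.5 in siControl and from 68.4 to 80.5 in the knockdowns. TUG1 had a half-lifetime of 4.28 h in siControl cells, and of 5.15, 4.56 and 5.39 h after knockdown of IGF2BP1, IGF2BP2 and IGF2BP3. The median over the genes with a half-lifetime in each condition was also longer after knockdown, at 6.91, 6.51 and 6.98 h against 6.22 h. In siControl 67.8% of genes were lost more slowly than TUG1, and 66.4%, 67.4% and 65.6% in the knockdowns. The siIGF2BP3 slope was 0.35 ± 0.14 shallower, with a 95% interval from 0.08 to 0.62, and did not pass the test (edgeR, adjusted p = 0.286).

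PVT1 (ENSG00000249859.9), a long noncoding gene beside the MYC oncogene, was measured at 157 to 443 reads in a library. In siControl it held 7.36 and 6.29 ERCC-scaled CPM at 0 h and 3.90 and 3.68 at 6 h, with the 3 h libraries between them at 75.4% and 58.6% of the 0 h mean. The loss over 6 h was -0.85 ± 0.18 log2 (edgeR, adjusted p = 0.000224), near that of the median gene (-0.88), and with TMM scaling the change was 0.02 (edgeR, adjusted p = 0.907). Its half-lifetime of 5.99 h in siControl ranged from 5.02 to 7.27 h when each library was left out. In siIGF2BP1 the 6 h libraries held 4.64 and 5.21, above those of siControl, and the loss of -0.43 (edgeR, adjusted p = 0.041) did not pass without the first or second 0 h library (-0.35 and -0.42, adjusted p = 0.186 and 0.103) or the first 6 h library (-0.41, adjusted p = 0.113), nor in DESeq2 (-0.43, adjusted p = 0.0664) or with no filter beyond 10 counts (adjusted p = 0.0715). The half-lifetimes after knockdown of IGF2BP1, IGF2BP2 and IGF2BP3 were 9.85, 8.76 and 7.48 h, with ranges as wide as 5.15 to 16.5 h in siIGF2BP3, and no slope difference from siControl passed the test. The calls in siIGF2BP2 and siIGF2BP3 also rested on single libraries, since the loss became -0.38 without the first 0 h library of siIGF2BP2 (edgeR, adjusted p = 0.129) or -0.50 without its first 6 h library (adjusted p = 0.0523), and -0.41 without the second 0 h library of siIGF2BP3 (edgeR, adjusted p = 0.0922). MYC, its neighbour, has a very unstable messenger RNA and fell by 6.31 log2 over 6 h in siControl.

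HULC is a cytoplasmic RNA first described in liver cancer, yet its row held very few reads here, between 17 and 89 in a library. The row (ENSG00000285219.1) spans chr6:8435568-9294133 on the plus strand in the GENCODE release used here, and the classical HULC transcript takes up chr6:8652262-8653830 within it. What the authors' earlier release placed under this identifier was not checked. In siControl it was at 1.27 and 1.09 ERCC-scaled CPM at 0 h, 0.587 and 0.831 at 3 h, and 0.442 and 0.534 at 6 h. The loss over 6 h was -1.27 ± 0.30 log2 in siControl, -1.45 in siIGF2BP1 and -0.90 in siIGF2BP2 (edgeR, adjusted p = 0.000624, 0.000291 and 0.00941). In siIGF2BP3, with 1.58 and 1.10 at 0 h and 0.803 and 0.865 at 6 h, the change of -0.70 did not pass the test (edgeR, adjusted p = 0.053), but did without the second 0 h library (-0.90, adjusted p = 0.0338). Without the first 0 h library of siIGF2BP2 the call there was lost (adjusted p = 0.147). The counting error alone reached 24.3% for a library, and the half-lifetimes of 4.37, 3.37, 5.18 and 9.06 h in siControl, siIGF2BP1, siIGF2BP2 and siIGF2BP3 had wide ranges, up to 5.88 to 25.8 h in the last. No slope difference of HULC between conditions was detectable at this depth.

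NORAD (ENSG00000260032.1) is a single-exon RNA on the minus strand at chr20:36045618-36051018 that shares no exon bases with another annotated gene. It is known for its many copies of the 8-base element that PUM2 binds. Its transcript of 5401 bases held 15 matches to TGTANATA on the sense strand. Such a match was found in 38.54% of 4063 stretches of the same length from the main transcripts of the annotation, and 15 or more in 0.04922%. Each stretch ran from the first base of a transcript at least that long. The far ends of longer transcripts were thus left out of this and the other shares of stretches below. The shares also include the transcript of the RNA itself, NORAD here and NORAD or MALAT1 below. Among the other members, NEAT1 held 6 and TUG1 2, and none was found in the annotated main transcripts of the remaining 5. For KCNQ1OT1 that transcript is a spliced form of 679 bases, whereas the exons of the gene cover 92625 bases, so its count does not describe the long RNA. The first 3 and the last element are shown, with 8 bases on each side, since they carry the feature that NORAD is known for. Capitals mark the element, T stands for U, and the positions of the elements, counted from the first base of the transcript, are 819-826, 1198-1205, 1299-1306 and 4657-4664.
Element 1: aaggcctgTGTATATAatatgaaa
Element 2: cactactgTGTATATAgttgacaa
Element 3: tcacatttTGTAAATAcctttttg
Element 15: agcctattTGTAAATAcctttgtt
The AU-rich pentamer ATTTA, a word common in unstable messenger RNAs, occurred 13 times in NORAD, and 18.93% of stretches of its length held as many or more. GGACT, the core of the commonest sequence context of m6A, a methyl mark that IGF2BP proteins are known to read, occurred 2 times in NORAD and 17 times in MALAT1, and 93.9% and 4.281% of stretches of their lengths held as many or more. No modification was measured in these libraries.

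NORAD was lost fastest of the 8. In siControl it fell from 455 and 378 ERCC-scaled CPM at 0 h to 138 and 135 at 3 h and 49.3 and 46.6 at 6 h, so that 11.8% and 11.2% of the 0 h mean was left. The change over 6 h was -3.12 ± 0.09 log2 (edgeR, adjusted p = 8.96e-18), and 7.39% of the genes tested lost as much or more, and the half-lifetime was 1.89 h (1.79 to 2.03 h with each library left out). In siIGF2BP1 the course was close to that in siControl, with 413 and 422, 143 and 132, and 51.7 and 46.2 at the 3 times and a half-lifetime of 1.91 h. The siIGF2BP2 libraries began lower, at 353 and 369, and ended at 50.4 and 52.8 (half-lifetime 2.03 h). The siIGF2BP3 libraries held 423 and 439 at 0 h, 164 and 167 at 3 h, and 63.6 and 57.7 at 6 h (half-lifetime 2.15 h). At 3 h and 6 h both siIGF2BP3 libraries were above all 6 libraries of the other conditions. The slopes in siIGF2BP2 and siIGF2BP3 were shallower than in siControl by 0.31 ± 0.12 and 0.29 ± 0.12 log2 over 6 h, with 95% intervals from 0.08 to 0.54 and from 0.06 to 0.52. Neither passed the test (edgeR, adjusted p = 0.643 and 0.29).

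OIP5-AS1 (ENSG00000247556.6), known as a sponge for HuR and for microRNAs, lies on the plus strand at chr15:41283958-41322392, antisense to OIP5. Of the bases of its main transcript, 21.9% are shared with another annotated gene on the same strand, so part of its reads may have been left unassigned or counted elsewhere. In siControl it held 77.9 and 68.0 ERCC-scaled CPM at 0 h, 48.1 and 47.9 at 3 h, and 36.8 and 36.3 at 6 h. The loss over 6 h was -0.99 ± 0.13 log2 (edgeR, adjusted p = 3.44e-07), near that of the median gene (-0.88), with a half-lifetime of 5.45 h. In siIGF2BP2 it held 59.3 and 67.5 at 0 h, 38.2 and 42.3 at 3 h, and 39.8 and 42.0 at 6 h, so that the 3 h and 6 h libraries overlapped. The 6 h level was higher than in siControl in every knockdown library, from 39.8 to 48.2 ERCC-scaled CPM. In CPM without ERCC scaling the libraries overlapped, at 45.7 and 48.3 in siControl and from 42.7 to 51.2 in the knockdowns. The half-lifetimes after knockdown of IGF2BP1, IGF2BP2 and IGF2BP3 were 6.31, 6.18 and 6.01 h, and their ranges overlapped with that of siControl (4.83 to 6.32 h).

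Set side by side, 6 of the 8 RNAs fell in siControl (80.3% of all genes did), all but MALAT1 and NEAT1. The same count was 6 in siIGF2BP1, 6 in siIGF2BP2 and 5 in siIGF2BP3, where 69.1%, 71.3% and 67.2% of genes fell. In siIGF2BP1 the remaining 2, MALAT1 and NEAT1, rose (2.69% of genes), and both calls were lost without single libraries, as given for each. Of the 5 RNAs known mainly from the nucleus, KCNQ1OT1, TUG1 and PVT1 fell and MALAT1 and NEAT1 did not. All 3 known mainly from the cytoplasm, HULC, NORAD and OIP5-AS1, fell in siControl. The order of half-lifetimes in siControl ran from NORAD (1.89 h) over KCNQ1OT1 (3.19 h), TUG1 (4.28 h) and HULC (4.37 h) to OIP5-AS1 (5.45 h) and PVT1 (5.99 h). The ranges of NORAD and KCNQ1OT1 were apart from each other and from the rest, whereas those of TUG1, HULC, OIP5-AS1 and PVT1 overlapped along the order. The median over the 11038 genes with a half-lifetime in siControl was 6.22 h, longer than for each of these 6 RNAs. In siIGF2BP1, siIGF2BP2 and siIGF2BP3 that median was 6.91, 6.51 and 6.98 h, over 10349, 11011 and 10224 genes. Genes without a net loss have no half-lifetime and are left out of these medians. They numbered 1140 in siControl and 1830, 1168 and 1954 in the 3 knockdowns. Longer half-lifetimes after knockdown were thus not particular to these RNAs. With TMM scaling, 3 of the 8 fell in siControl, KCNQ1OT1 (-0.85), TUG1 (-0.50) and NORAD (-2.25), and MALAT1 and NEAT1 rose.

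**Figure D4:**
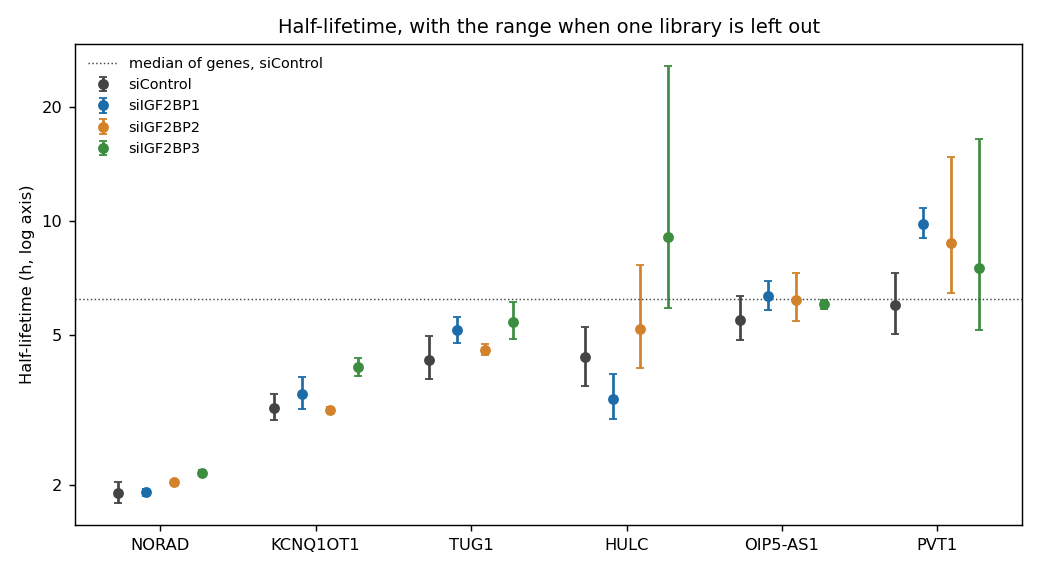
Half-lifetime in hours (log axis) of the 6 RNAs whose level fell, in each of the 4 siRNA conditions. Bars run from the lowest to the highest value when each library was left out in turn. The dotted line marks the median of the 11038 genes with a half-lifetime in siControl, 6.22 h. NORAD and KCNQ1OT1 lay lowest in every condition but siIGF2BP1, where HULC lay below KCNQ1OT1, and the bars of HULC and PVT1 in siIGF2BP3 were the widest.

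No slope of the 8 RNAs differed from siControl past the test in any knockdown (0 of 8 in each, edgeR), where 0.0152% of genes were called in siIGF2BP1, 0% in siIGF2BP2 and 0.0228% in siIGF2BP3. DESeq2 called 0 of 8 in each as well. At an unadjusted p under 0.05, edgeR gave 0, 1 and 2 of the 8 in siIGF2BP1, siIGF2BP2 and siIGF2BP3, namely NORAD in siIGF2BP2 and NORAD and TUG1 in siIGF2BP3. The median difference of the 8 was 0.20, 0.26 and 0.28 log2 over 6 h, beside 0.19, 0.17 and 0.22 over all genes tested. The shift over all genes was -0.01, -0.02 and -0.01 with TMM scaling. Between pairs of knockdowns the slopes of the 8 gave no call either (edgeR, 0% of genes called in each pair). At an unadjusted p under 0.05 there was NORAD alone, with a difference of -0.28 log2 for siIGF2BP1 against siIGF2BP2 and -0.26 against siIGF2BP3. DESeq2 called 0 of 8 in each pair.

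Before actinomycin D, the levels of the 8 RNAs differed little between conditions, and most of the differences that passed the test were in siIGF2BP2. These 0 h levels were tested with TMM scaling. In siIGF2BP2 4 of the 8 changed (12.1% of all genes did). NORAD was lower, at 295 and 302 CPM against 374 and 356 CPM in siControl, a log2 change of -0.28 ± 0.04 (SE; edgeR, adjusted p = 1.45e-06). OIP5-AS1 was lower, at 49.4 and 55.3 CPM against 64.0 and 63.9 CPM, a change of -0.28 ± 0.06 (edgeR, adjusted p = 0.000434). The groups did not overlap for either RNA. MALAT1 was lower by a smaller amount, at 874 and 933 CPM against 989 and 1014 CPM (-0.14 ± 0.04; edgeR, adjusted p = 0.0255). NEAT1 was higher, at 141 and 145 CPM against 129 and 136 CPM (0.12 ± 0.04; edgeR, adjusted p = 0.034).

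The call for NORAD held with each library left out in turn. OIP5-AS1 lost its call without the first siIGF2BP2 library (-0.20, adjusted p = 0.0769). MALAT1 lost it without either siControl library (adjusted p = 0.0836 and 0.178) or the first siIGF2BP2 library (-0.09, adjusted p = 0.397), and DESeq2 did not give it (-0.15, adjusted p = 0.0914). NEAT1 lost it without the first siControl library (0.08, adjusted p = 0.391) or either siIGF2BP2 library (adjusted p = 0.0769 and 0.251), and with other filters on low counts (adjusted p = 0.0691 and 0.0532). On the ERCC scale, where the median gene was 0.10 higher in siIGF2BP2 than in siControl, the directions held but none of the 4 passed the test (edgeR; NORAD -0.21, adjusted p = 0.128; OIP5-AS1 -0.20, adjusted p = 0.195; MALAT1 -0.06, adjusted p = 0.708; NEAT1 0.20, adjusted p = 0.149).

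In siIGF2BP1 1 of the 8 changed at 0 h (15.9% of genes did). TUG1 was at 115 and 115 CPM against 133 and 129 CPM, a change of -0.17 ± 0.05 log2 (edgeR, adjusted p = 0.0166), which was not called without the first siControl library (-0.14, adjusted p = 0.175) or without either siIGF2BP1 library (adjusted p = 0.128 and 0.0634), nor on the ERCC scale (-0.20, adjusted p = 0.217). In siIGF2BP3 0 of 8 changed (edgeR, 9.39% of genes called; DESeq2 0), and TUG1 alone was under an unadjusted p of 0.05 (-0.12; edgeR, adjusted p = 0.143). TUG1 thus had the same sign in both comparisons, which share the siControl libraries.

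Compared with each other, siIGF2BP1 and siIGF2BP2 differed in 4 of the 8 at 0 h (18.7% of genes). NORAD, OIP5-AS1 and MALAT1 were higher in siIGF2BP1 by 0.32 ± 0.04, 0.35 ± 0.06 and 0.22 ± 0.04 log2 (edgeR, adjusted p = 7.46e-08, 1.85e-05 and 0.000276), and NEAT1 was lower (-0.14; edgeR, adjusted p = 0.00658). siIGF2BP2 and siIGF2BP3 differed in 2 of the 8 (9.19% of genes), NORAD at -0.25 ± 0.04 and OIP5-AS1 at -0.39 ± 0.06 (edgeR, adjusted p = 1.36e-05 and 3.97e-06). Between siIGF2BP1 and siIGF2BP3 0 of 8 differed (edgeR, 14.3% of genes called; DESeq2 0; 0 at an unadjusted p under 0.05). NORAD and OIP5-AS1 were therefore lower in siIGF2BP2 than in each of the other 3 conditions on the TMM scale. On the ERCC scale 2 of these 6 differences passed the test, NEAT1 between siIGF2BP1 and siIGF2BP2 (-0.25; edgeR, adjusted p = 0.0264) and OIP5-AS1 between siIGF2BP2 and siIGF2BP3 (-0.39; edgeR, adjusted p = 0.00161). The NEAT1 difference also lost its call without the second siIGF2BP1 library at 0 h (-0.10, adjusted p = 0.157) or the second siIGF2BP2 library (-0.12, adjusted p = 0.0918). MALAT1 gained a call between siIGF2BP2 and siIGF2BP3 without the second siIGF2BP2 library at 0 h (-0.18). The same difference was called in a fit of only the groups compared (-0.14, adjusted p = 0.000994) and with the replicate block (-0.13, adjusted p = 0.044). Either other filter on low counts gave the call too (-0.15 and -0.12, adjusted p = 0.0271 and 0.00156). With no filter beyond 10 counts, MALAT1 between siIGF2BP1 and siIGF2BP3 (0.10, adjusted p = 0.0151) and NEAT1 between siIGF2BP2 and siIGF2BP3 (0.11, adjusted p = 0.042) were called as well, and TUG1 between siIGF2BP1 and siIGF2BP2 was called in the fit of only the groups compared (-0.11, adjusted p = 0.0207). In the fit of all libraries KCNQ1OT1, PVT1 and HULC gave no call at 0 h in any comparison. In the fit of only the groups compared, KCNQ1OT1 was called in siIGF2BP2 against siControl (-0.09; edgeR, adjusted p = 0.0121). For KCNQ1OT1 the 95% intervals against siControl all lay within -0.17 and 0.08 log2, while those of HULC reached from -0.52 to 0.86.

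**Figure D5:**
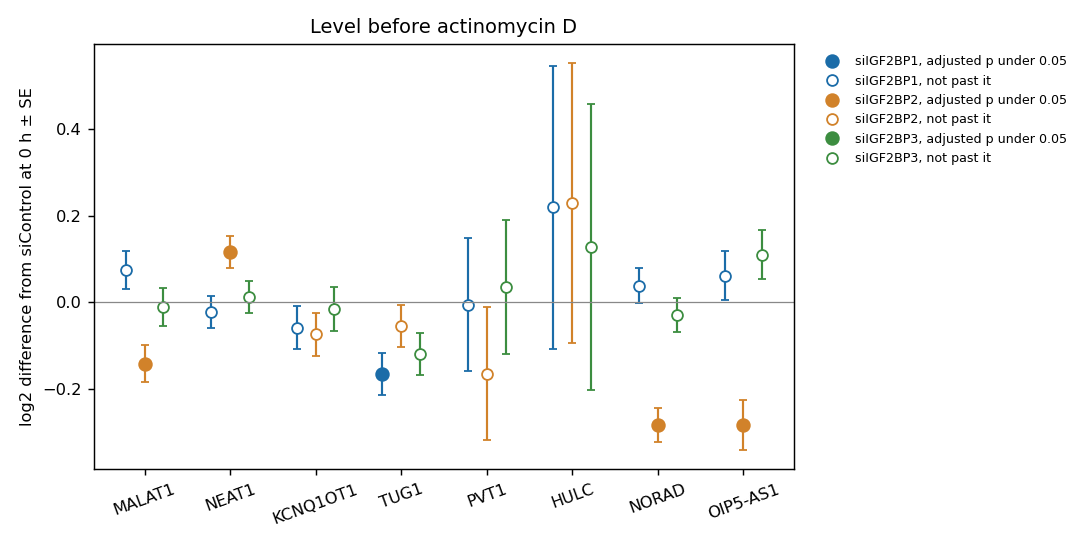
Difference from siControl at 0 h, in log2 on the TMM scale with bars for the SE, for the 8 long noncoding RNAs in each knockdown, with filled points where the adjusted p was under 0.05. NORAD and OIP5-AS1 in siIGF2BP2, both at -0.28, lay farthest below 0 among the filled points.

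The RNAs were set beside genes related to them. Of 48 other named long noncoding RNAs found in the files, 29 passed the filter. In siIGF2BP1 0 of them were higher and 6 lower at 0 h, where 15.9% of all genes changed (median -0.13 log2, beside 0.01 over all genes): DANCR, LINC00205, SNHG1, SNHG7, SNHG14 and HAGLR. HAGLR, chosen for mention after its value was seen, had the largest change of these, -1.08 ± 0.06 (edgeR, adjusted p = 9.34e-16). In siIGF2BP2 2 were higher and 3 lower, and in siIGF2BP3 1 was higher (SNHG5) and 0 lower, where 12.1% and 9.39% of all genes changed. After actinomycin D 23 of the 29 fell in siControl, a share near the 80.3% of all genes, with a median change over 6 h of -1.22 log2, and 0 of them differed in slope from siControl in any knockdown.

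Of 19 genes for known protein partners of the 8 RNAs, all 19 passed the filter and all 19 fell in siControl after actinomycin D, as did 80.3% of all genes. The mRNA of PUM2, the protein that NORAD binds, was higher at 0 h by 0.16 ± 0.04 log2 in siIGF2BP2 and by 0.14 ± 0.04 in siIGF2BP3 (edgeR, adjusted p = 0.00858 and 0.025). The mRNAs of the paraspeckle proteins NONO and PSPC1 were higher in siIGF2BP3 by 0.09 and 0.16 log2 (edgeR, adjusted p = 0.0455 and 0.00248). That of NONO was also higher in siIGF2BP1 by 0.09 (edgeR, adjusted p = 0.0242). Protein levels were not measured. In all, 3 partners were higher and 0 lower in siIGF2BP1, 1 higher and 1 lower in siIGF2BP2, and 4 higher and 1 lower in siIGF2BP3, where 15.9%, 12.1% and 9.39% of all genes changed. None differed in slope from siControl in any knockdown.

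Of 8 neighbouring or overlapping protein-coding genes examined, 6 passed the filter. EPB41L1, the gene beside NORAD that encodes a membrane skeleton protein, was lower at 0 h in all 3 knockdowns, by -0.29, -0.44 and -0.25 log2 in siIGF2BP1, siIGF2BP2 and siIGF2BP3 (edgeR, adjusted p = 0.00128, 3.5e-06 and 0.00922). These comparisons share the siControl libraries, and EPB41L1 was not called between knockdowns. OIP5, which overlaps OIP5-AS1 on the other strand, was higher by 0.25 in siIGF2BP1 and in siIGF2BP2 (edgeR, adjusted p = 0.0284 and 0.034). FRMD8, near NEAT1, was lower in siIGF2BP1 by -0.25 (edgeR, adjusted p = 0.0466). The neighbours called at 0 h were 1 higher and 2 lower in siIGF2BP1, where 15.9% of all genes changed. They were 1 higher and 1 lower in siIGF2BP2 and 0 higher and 1 lower in siIGF2BP3, where 12.1% and 9.39% changed.

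For each RNA the 2 genes with the most similar course over the 12 groups were found by Euclidean distance of their log2 ERCC-scaled levels relative to siControl at 0 h, among 9744 genes at a mean of 5 CPM or more. For NORAD they were URB2 and CEBPZ, at distances of 0.34 and 0.42, where the median gene lay at 5.45. For KCNQ1OT1 they were ALMS1 and SRGAP2 (0.24 and 0.30), for TUG1 MLX and EPN2 (0.20 and 0.23), and for OIP5-AS1 INTS13 and ABCB4 (0.28 and 0.31). SEZ6L2 and CST3 were nearest to MALAT1 (0.21 and 0.27), NAB1 and TJAP1 to PVT1 (0.25 and 0.27), and SMIM3 and ZFP41 to HULC (0.41 and 0.45). NEAT1 had no close neighbour. Its nearest genes, the mitochondrial ribosomal RNA MT-RNR1 and the pseudogene RPL22P1, lay at 2.51 and 2.59, and they reached 2.06 and 1.63 times their 0 h level at 3 h in siControl, against 3.32 times for NEAT1.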

How the data were processed

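RNA from 24 HepG2 libraries was compared, 2 for each siRNA condition and time, grouped by the labels. The deposited values are raw read counts per gene. Per the study's methods and the labels, the authors enriched polyadenylated RNA, made stranded libraries with a SMARTer kit, sequenced single ends, trimmed with Trimmomatic 0.39, aligned to hg38 with HISAT2 2.1.0 and counted with HTSeq on GENCODE release 29. How HTSeq treated strand and overlapping genes was not given in the sources used here. ERCC RNA was added per amount of total RNA, so the ERCC scale follows loss per total RNA. Between 13.6% and 17.1% of reads sat in rows that name no gene and stayed out of library sizes, as did 45 duplicate rows of the Y chromosome.

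Gene names, positions and sequences came from GENCODE release 44 (hg38), and 58207 of 58676 rows had a name. Tests used edgeR 4.0.16 (quasi-likelihood, Benjamini-Hochberg over 13136 genes, threshold 0.05) in R 4.3.3. Levels at 0 h came from a fit of 12 group means with TMM scaling. The change over 6 h is the slope on time for each condition in a fit scaled on ERCC reads. Standard errors were the log2 change divided by the square root of F. The half-lifetime was ln 2 divided by the mean of the rates from 0 to 3 h and from 0 to 6 h, on the means of the 2 libraries. Scripts were tested on simulated counts. Alternatives were DESeq2 1.42.0, other scalings and filters, fits of only the groups compared, a replicate block, and each library left out. Changes between single times were not refitted with these, apart from TMM scaling from 0 to 3 h.

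The ERCC counting error was at most 0.443% per library, but the ERCC scale varied by more than this within groups. Reads assigned to genes per ERCC read were 762 and 666 in the siControl libraries at 0 h. They were 535 and 616 in those of siIGF2BP2 at 6 h. Such a difference shifts all transcripts of a library together on the ERCC scale, and so enters the half-lifetimes. The 2 libraries of a group differed by more than counting error (chi-square of 3.17 to 7.83 for each degree of freedom), and each counted as a replicate. The study calls its replicates independent and re-seeded each transfected plate for the 3 times. Which plate gave which library was not given in the sources used here, so libraries of different times may share a transfection, and p-values measure only the spread between these libraries. Deviations of same-numbered libraries from their group means on the TMM scale had correlations of -0.04 to 0.18 over 66 pairs of groups. The numbers were therefore not taken to pair them. The rule for named genes took all 8 members in every comparison, the 2 genes most like each, and counts over lists of other long noncoding RNAs, protein partners and neighbours, of which 1 partner and 1 neighbour are not reported here. The members and lists were chosen with earlier results of these data known.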

Additional observations from a re-analysis of the deposited data

Results flagged for a closer look

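These differences between 2 conditions passed a test of the difference itself in edgeR. At 0 h, siIGF2BP1 minus siIGF2BP2 was 0.22 log2 for MALAT1, -0.14 for NEAT1, 0.32 for NORAD and 0.35 for OIP5-AS1, and siIGF2BP2 minus siIGF2BP3 was -0.25 for NORAD and -0.39 for OIP5-AS1. The rise of NEAT1 from 0 to 6 h was greater by 0.57 log2 in siIGF2BP1 and by 0.46 in siIGF2BP3 than in siControl, and by 0.56 in siIGF2BP1 than in siIGF2BP2. From 0 to 3 h the last of these differences was 0.49 (0.495) on the ERCC scale. With TMM scaling the NEAT1 differences from 0 to 3 h were 0.35 for siIGF2BP1 and 0.29 for siIGF2BP3 against siControl, 0.40 for siIGF2BP1 against siIGF2BP2, and -0.33 for siIGF2BP2 against siIGF2BP3.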

How the results depend on the processing

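Under the alternatives run, the lower level of NORAD in siIGF2BP2 at 0 h kept its direction in all and lost its call on the ERCC scale. On the ERCC scale the RNAs called at 0 h numbered 0 in siIGF2BP1 (against 1) and 0 in siIGF2BP2 (against 4), and 2 over the 3 pairs of knockdowns (against 6). In a fit of only the groups compared, 1 was called in siIGF2BP3 at 0 h (TUG1, -0.12) where none had been, and KCNQ1OT1 was called in siIGF2BP2 (-0.09). With each library left out in turn, the count at 0 h ranged from 0 to 1 in siIGF2BP1, from 1 to 3 in siIGF2BP2 and from 5 to 6 over the pairs. With TMM scaling 3 of 8 fell over 6 h in siControl (against 6), and 10 falls were called over the 3 knockdowns (against 17). With each library left out the falls stayed at 6 in siControl and ranged from 15 to 17 over the knockdowns.

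NEAT1 was the RNA with differences in change between conditions where none was called on the slope: 1 in siIGF2BP1 and 1 in siIGF2BP3 for the change from 0 to 6 h and again for 0 to 3 h with TMM scaling. Over the pairs of knockdowns the count was 1 for 0 to 6 h, 1 for 0 to 3 h and 2 for 0 to 3 h with TMM scaling. The intervals from 0 to 3 h, on both scales, and from 3 to 6 h were chosen after seeing the data. From 3 to 6 h NEAT1 changed by -0.54, -0.39, -0.46 and -0.44 in siControl, siIGF2BP1, siIGF2BP2 and siIGF2BP3, MALAT1 by -0.0056 in siIGF2BP1 and -0.20 in siIGF2BP3, and OIP5-AS1 by 0.024 in siIGF2BP2, each against the sign of its slope. With TMM scaling PVT1 changed by 0.022, 0.24 and 0.093 in siControl, siIGF2BP1 and siIGF2BP2 (0.071 from 0 to 3 h in siIGF2BP2) and OIP5-AS1 by 0.044 in siIGF2BP2. The cause was not tested, other than that TMM scaling removes the loss common to all transcripts by construction.

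With the replicate number as a term (replicate block), the calls at 0 h were 1, 4 and 0 in siIGF2BP1, siIGF2BP2 and siIGF2BP3 and 7 over the pairs (against 6), and the falls stayed at 6 and 17. The replicate block within each condition took the call from NEAT1 over 6 h in siIGF2BP1 (1.75, adjusted p = 0.0753). Same-numbered libraries did not deviate together on the TMM scale. That scale removes shifts of a whole library, so the correlations cannot show whether such shifts are shared on the ERCC scale. Of the half-lifetimes recomputed under alternatives, 66 of 213 moved by more than an SD between libraries. This was the SD of half-lifetimes computed from the libraries of each replicate number, although the numbers were not taken to pair libraries. All 21 recomputed with TMM scaling moved, in siControl from 1.89 to 2.64 h for NORAD and from 5.99 to 54.4 h for PVT1. Depth limits HULC and PVT1. With 2 libraries a group, no slope difference of the 8 RNAs passed the test at any size seen here. Of the 13136 genes tested, 2, 0 and 3 passed against siControl in siIGF2BP1, siIGF2BP2 and siIGF2BP3.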
